A study of Mus musculus with 8 samples.

Results

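The miRNAs described here come from 6 hairpins linked to macrophage activation states. They are both arms of miR-511 (mmu-miR-511-5p and mmu-miR-511-3p), both arms of miR-378a (mmu-miR-378a-5p and mmu-miR-378a-3p) with the relatives mmu-miR-378c and mmu-miR-378d, both arms of miR-342 (mmu-miR-342-5p and mmu-miR-342-3p), and the 3p arm of miR-193a (mmu-miR-193a-3p). These 9 mature miRNAs were chosen by name from the 1907 in the deposited count tables, and all 9 passed the filter on low counts, as did 348 others. They were measured by small RNA sequencing in macrophages that were grown for 6 days from the bone marrow of wild-type mice, in medium with L929 supernatant as the source of the growth factor M-CSF. The donor mice were 8 to 12 weeks old. The 3 LPS libraries came from cells exposed for 3 h to LPS at 100 ng/ml, and the 3 control libraries came from cells that received no LPS. LPS is a bacterial cell wall lipid that macrophages sense through the receptor TLR4. Whether libraries of 1 group stem from different mice or cultures is not labelled, so every p-value here reflects the spread among these libraries, which may be technical. No group was treated with IL-4 or IL-13, so the alternatively activated state itself was not sampled.

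A hairpin precursor is cut by Drosha and Dicer into a 5p and a 3p strand, and an Argonaute protein keeps mainly one strand of the pair. The seed, bases 2 to 8 of the mature strand, does most of the pairing with target mRNAs. Alternative activation is the state that IL-4 and IL-13 induce through the transcription factor STAT6, and the mannose receptor gene Mrc1 is one of its standard markers in mice. The hairpin of miR-511 lies in Mrc1 and that of miR-378a in Ppargc1b, a coactivator gene of oxidative metabolism that IL-4 also induces in mouse macrophages. LPS drives the opposing classical state, with miR-155 as its best known miRNA.

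Sequences are shown to set the arms of miR-511, miR-342 and miR-193a apart by their seeds and to show how nearly alike the miR-378 relatives are. They are RefSeq sequences of the GRCm38.p6 table, which held 6 of the 9 arms, written 5′ to 3′ with the seed in capitals.
miR-511-3p: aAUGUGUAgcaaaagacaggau
miR-342-5p: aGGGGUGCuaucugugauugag
miR-342-3p: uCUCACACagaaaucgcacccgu
miR-193a-3p: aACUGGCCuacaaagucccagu
miR-193b-3p: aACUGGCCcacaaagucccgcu
miR-378c: aCUGGACUuggagucagaagc
miR-378d: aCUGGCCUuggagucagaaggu
miR-378b: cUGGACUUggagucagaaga

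Each of the 6 arms has its own seed, so no pair among them forms a seed family. The seed of miR-193a-3p recurs in 1 other miRNA of the table, its paralog miR-193b-3p, which had 2 to 6 counts per library. No other mature miRNA with a sequence in the table shares bases 2 to 8 with any of the other 5. This comparison did not include miR-511-5p, miR-378a-5p and miR-378a-3p, so the seeds of miR-378c and miR-378a-3p were not compared. Of the 1907 listed miRNAs, 1623 had a sequence. miR-378c and miR-378d have the same base at 19 positions when aligned from their 5′ ends, over the 21 bases of the shorter one, and share an unbroken run of 14. The first 8 bases of miR-378d, ACUGGCCU, are also bases 2 to 9 of miR-193a-3p, so the seeds of the pair overlap with a shift of 1 base. miR-378b repeats bases 2 to 20 of miR-378c as its own bases 1 to 19. miR-378a-3p belongs to the same close family, and how the authors assigned reads that fit several of its members is not given in the sources used here.

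Apart from that of miR-193a, the hairpins lie at least 178.3 kb from other annotated hairpins. The miR-511 hairpin spans chr2:14261003-14261081 on the plus strand, inside the span of Mrc1 (chr2:14229414-14332023), also on the plus strand. The miR-342 hairpin spans chr12:108658620-108658718 on the plus strand, inside the span of Evl (chr12:108554681-108688516), a plus-strand gene of the Ena/VASP family that acts on actin filaments. The miR-378c hairpin lies at chr14:46954830-46954928 on the minus strand, within the span of the plus-strand gene Samd4 and of the predicted gene Gm52120. The miR-193a hairpin (chr11:79711969-79712034, plus strand) and the miR-378d hairpin (chr10:126710282-126710391, minus strand) lie in no other annotated gene span. The miR-378a hairpin lies within the span of Ppargc1b. No other hairpin lies within 10 kb of any of these 6, and the nearest is Mir365-2, 14.4 kb from miR-193a. The gene table gives spans only, so whether a hairpin is intronic or exonic is not stated. Coordinates are GRCm38.p6.

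The hairpin of miR-342, with its 5p and then its 3p arm in capitals, shows how the strands are placed whose levels are compared further on.
Mir342: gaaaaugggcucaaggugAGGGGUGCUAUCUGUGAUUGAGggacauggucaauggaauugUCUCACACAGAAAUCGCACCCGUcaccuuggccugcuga

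Libraries held 3280688 to 4105395 counts in the LPS group and 3912296 to 4312555 in the control group. The 9 arms together took 1.68% to 1.76% of the counts in LPS libraries and 1.75% to 1.96% in control libraries. Levels are CPM, the counts brought to one library size by TMM scaling. The 6 arms with a sequence are 21 to 23 bases long. How evenly library preparation captured different miRNAs was not measured. Levels and shares set side by side between miRNAs therefore describe counts, which need not follow the amounts in the cells. The miRNAs taken as macrophage and myeloid markers (miR-22-3p, miR-21a-5p, miR-142a-5p, miR-223-3p and miR-142a-3p) summed to 479460 to 541480 CPM in LPS libraries. The sum was 472870 to 528300 CPM in control libraries, with miR-142a-3p listed at 0 throughout. Most of it came from miR-22-3p and miR-21a-5p, with LPS means of 235059 and 226014 CPM. miR-142a-5p had a mean of 57063 CPM there and miR-223-3p 2339 CPM. Whether the sum is specific to myeloid cells was not tested. Erythroid, stromal and endothelial miRNAs each summed to at most 2.21 CPM in any library, and the muscle miRNAs had 0 counts in all 6. A listed 0 need not mean absence, since miR-142a-3p stood at 0 beside 196331 to 238828 counts of miR-142a-5p from the same hairpin. These low sums therefore do not show that such cells were absent. In bulk RNA, fewer cells that make a miRNA and less of it per cell cannot be told apart.

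None of the 9 arms passed the test for a change after 3 h of LPS. Over all 357 miRNAs tested, 5.04% passed (3.64% higher and 1.4% lower in LPS), so 0 of 9 is near that background. A change was called at an adjusted p below 0.05, from the quasi-likelihood test of edgeR adjusted over all 357 by the Benjamini-Hochberg method. The 9 log2 fold changes of LPS over control ran from -0.39 for miR-511-5p to 0.29 for miR-193a-3p, with a median of 0.05 and 5 of 9 above 0. Over all tested miRNAs the median was 0.01 and the interquartile range -0.14 to 0.13. The 2 arms of miR-511 and the 2 of miR-342 had negative values, and all 4 miR-378 arms and miR-193a-3p had positive ones. The sign did not hold under every alternative: miR-378a-3p stood at -0.01 with upper-quartile factors and at -0.02 without control replicate 2, miR-378a-5p at -0.0073 without control replicate 2, and miR-378d at -0.0033 without LPS replicate 1.

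**Figure D1:**
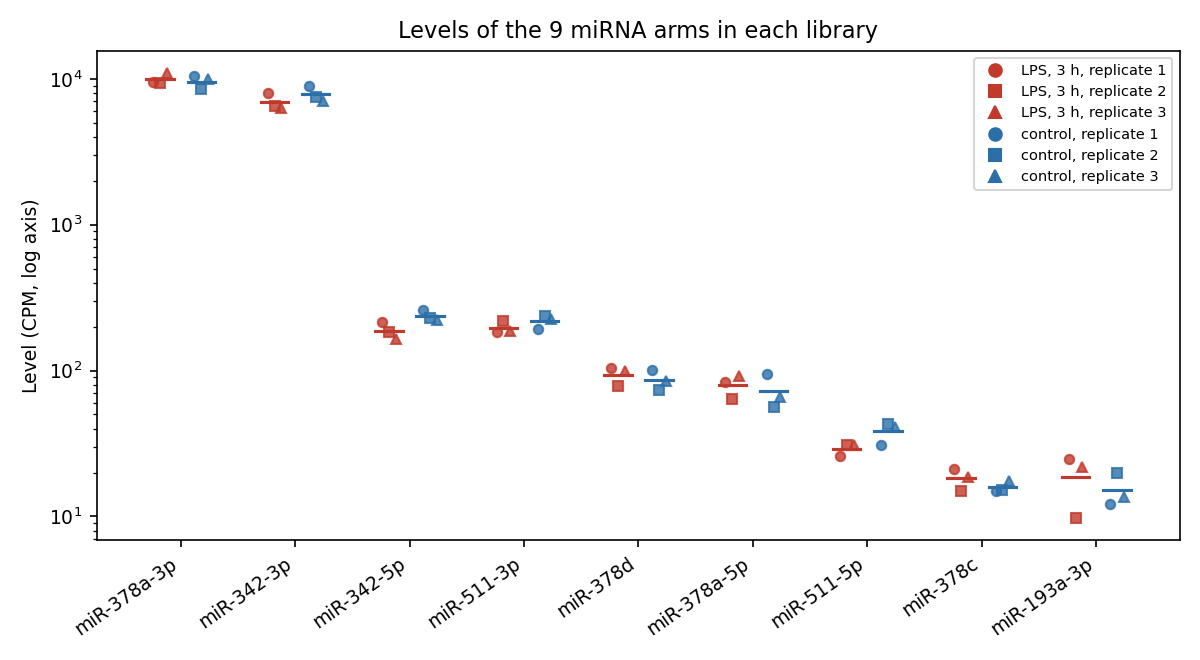
Level of each arm in CPM on a log axis, with LPS libraries (red) left of control libraries (blue). Each point is 1 library, marker shapes give the replicate number and bars are group means. The values span from 9.80 CPM for miR-193a-3p in LPS replicate 2 to 10978 CPM for miR-378a-3p in LPS replicate 3, and only miR-342-5p has all LPS points below all control points.

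**Figure D2:**
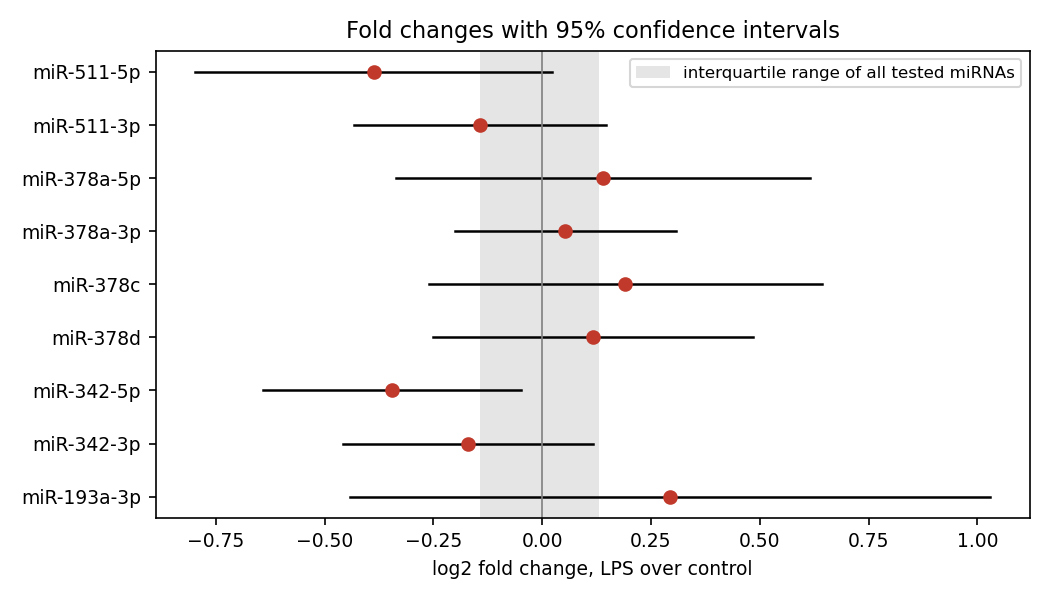
Log2 fold change of LPS over control for each arm (point) with its 95% confidence interval (line). The grey band is the interquartile range of all 357 tested miRNAs (-0.14 to 0.13). The interval of miR-342-5p lies below 0 and the other 8 include it.

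miR-511 is the miRNA of the mannose receptor gene, and in mouse tumour-associated macrophages its 3p strand is known to restrain a pro-tumour programme. miR-511-3p was its more abundant strand here, at 185, 219 and 187 CPM in the LPS libraries, against 192, 237 and 225 CPM in the control libraries. The groups overlapped, since control replicate 1 lay among the LPS values. The means were 197 ± 19.3 CPM in LPS and 218 ± 23.5 CPM in control libraries (SD, n = 3 each), a log2 fold change of -0.14 (SE 0.13, 95% interval -0.43 to 0.15, edgeR adjusted p = 0.928).

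miR-511-5p had 82, 126 and 121 counts in the LPS libraries, against 130, 177 and 169 counts in the control libraries. Scaled, these were 26.0, 30.9 and 30.7 CPM in LPS and 30.9, 43.0 and 41.0 CPM in control libraries. Control replicates 2 and 3 were above every LPS library, while control replicate 1 (30.86 CPM) fell just below LPS replicate 2 (30.88 CPM). This arm had the largest absolute fold change of the 9, a log2 value of -0.39 (SE 0.18, interval -0.80 to 0.02), and edgeR's adjusted p was 0.478. Its adjusted p ranged from 0.173 without control replicate 1 to 0.815 without LPS replicate 3. Across all tested miRNAs its absolute log2 fold change ranked 60th of 357.

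The miR-378 group had the most abundant arm of the set, from the hairpin in Ppargc1b on chromosome 18. miR-378a-3p, which IL-4 induces in mouse macrophages and which targets Akt1 there, held 9586, 9311 and 10978 CPM in the LPS libraries, against 10395, 8480.3 and 9917 CPM in the control libraries. The highest and the lowest value each stood in a different group, and the ranges overlapped. The log2 fold change was 0.05 (SE 0.11, adjusted p = 0.943 by edgeR). Its 95% interval, as a fold of LPS over control, ran from 0.871 to 1.24, the narrowest of the 9.

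The other strand, miR-378a-5p, was at 82.9, 64.0 and 92.4 CPM in LPS and 95.2, 56.1 and 65.7 CPM in control libraries. Control replicate 1 had the highest and control replicate 2 the lowest of the 6 values, a 1.70-fold spread within untreated cells. Its log2 fold change was 0.14 (SE 0.21, interval -0.34 to 0.62).

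miR-378d was at 105, 78.4 and 98.7 CPM in LPS, against 100.4, 73.8 and 85.3 CPM in control libraries, and the groups overlapped. Its log2 fold change was 0.12 (SE 0.17, interval -0.25 to 0.49). miR-378c had 61 to 73 counts in LPS and 63 to 72 counts in control libraries, with a log2 fold change of 0.19 (SE 0.20, interval -0.26 to 0.64). edgeR's adjusted p was 0.943 for miR-378a-5p, miR-378c and miR-378d alike. miR-378b, the relative with the same run of bases shifted by 1, had at most 1 count in any library.

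For every 100 counts of miR-378a-3p there were 0.842 to 1.09 counts of miR-378d in LPS and 0.861 to 0.966 in control libraries. The same ratio for miR-378c was 0.161 to 0.221 in LPS and 0.144 to 0.180 in control libraries. Both ratios overlapped between the groups. Whether misassigned miR-378a-3p reads contribute to them was not tested.

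miR-342 comes from the Evl gene and is also expressed in lymphocytes. Its 5p strand is known from mouse atherosclerosis, where it targets Akt1 in macrophages and raises inflammatory mediators. miR-342-5p had 675, 752 and 646 counts in the LPS libraries, against 1100, 942 and 922 counts in the control libraries. As levels these were 214, 184 and 164 CPM in LPS and 261, 229 and 224 CPM in control libraries. All 3 LPS values lay below all 3 control values, which held for 1 of the 9 arms and, in either direction, for 16% of all tested miRNAs (7.28% with LPS below and 8.68% with LPS above). The means were 187 ± 25.0 CPM in LPS and 238 ± 20.4 CPM in control libraries (SD, n = 3 each).

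The log2 fold change of miR-342-5p was -0.35 (SE 0.13, interval -0.64 to -0.05). Its unadjusted p from edgeR was 0.0268, a level that 11.8% of all tested miRNAs passed, and the adjusted p was 0.29. The adjusted p was lowest, at 0.142, without LPS replicate 1, and highest, at 0.99, without LPS replicate 3, where the log2 fold change was -0.21. Of the 9 arms it was the one with an unadjusted p below 0.05.

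miR-342-3p, the second most abundant arm of the set, was at 8007, 6514 and 6326.5 CPM in LPS libraries, against 8939, 7493 and 7037 CPM in control libraries. The groups overlapped because LPS replicate 1 was above control replicates 2 and 3. The log2 fold change was -0.17 (SE 0.13, interval -0.46 to 0.12, edgeR adjusted p = 0.815), but it was -0.32 without LPS replicate 1 (adjusted p = 0.297) and -0.06 without LPS replicate 3 (adjusted p = 0.996). The lymphocyte miRNAs (miR-150-5p, miR-150-3p, miR-181a-5p and miR-181b-5p) summed to 184 to 212 CPM in LPS and 170 to 190 CPM in control libraries, in every library below miR-342-3p. The 2 ranges overlapped, and none of the 3 tested members passed. These sums may be too low, because miR-181a-5p was listed with at most 17 counts, beside 546 to 1102 for the strand miR-181a-1-3p. Whether lymphocytes contributed to the level of miR-342-3p was not tested.

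miR-193a-3p, best studied as a tumour suppressor that targets the receptor KIT in human acute myeloid leukaemia, was the noisiest of the 9. It had 78, 40 and 86 counts in the LPS libraries, against 51, 82 and 56 counts in the control libraries. Its levels were 24.7, 9.80 and 21.8 CPM in LPS and 12.1, 19.9 and 13.6 CPM in control libraries. LPS replicate 2 was the lowest of the 6 libraries and the other LPS replicates were the highest, a 2.52-fold spread within the treated group. The log2 fold change was 0.29 (SE 0.33, edgeR adjusted p = 0.943), and its interval of -0.44 to 1.03 reaches past a log2 value of 1, a 2-fold rise. Without LPS replicate 2 the log2 fold change was 0.62 (adjusted p = 0.347), and without LPS replicate 1 it was 0.01 (adjusted p = 0.985). The other strand, miR-193a-5p, had at most 2 counts in any library and was not tested, nor was the paralog miR-193b-3p.

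**Figure D3:**
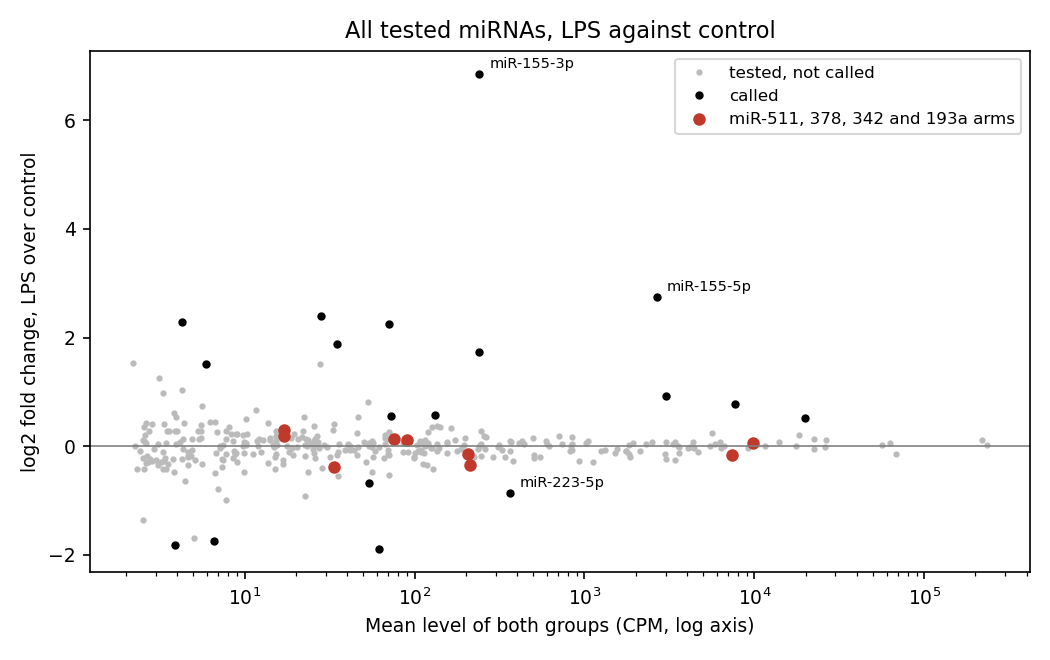
Mean level of both groups in CPM on a log axis against the log2 fold change of LPS over control, for all 357 tested miRNAs. Grey points did not pass the test, black points did, and red points are the 9 arms of miR-511, miR-378, miR-342 and miR-193a. The 9 lie between -0.39 and 0.29, while miR-155-3p stands at 6.85.

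The levels of the 9 arms fell in an order led by miR-378a-3p (rank 15 to 16 among all 1907 listed miRNAs in the 6 libraries) and miR-342-3p (rank 17 to 21). These neighbours were apart in the LPS libraries and overlapped in the control libraries. miR-342-5p and miR-511-3p came next and overlapped in both groups, and so did miR-378d and miR-378a-5p below them. miR-511-5p followed and was apart from its neighbours on either side in both groups. miR-378c and miR-193a-3p were last and overlapped, at ranks 213 to 232 and 202 to 260.

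The next comparison asked whether the 2 arms of a hairpin changed equally. For miR-511, miR-378a and miR-342 the 5p arm was the scarcer one, and in none of the 3 did the difference between arms pass the test, against 12% of all 100 hairpins with both arms tested. The test was limma on the log2 ratio of the scarcer to the abundant arm within each library, with Benjamini-Hochberg adjustment over the 100 hairpins. The 5p arm of miR-342 made up 2.60%, 2.75% and 2.53% of the hairpin's counts in LPS libraries, against 2.84%, 2.96% and 3.08% in control libraries, and the groups did not overlap. Such separation of the scarcer arm's share held for 1 of these 3 hairpins and for 19% of all 100 (6% with LPS below). The arm difference was -0.18 on the log2 scale (SE 0.16, interval -0.52 to 0.17), with an adjusted p of 0.733 from limma.

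The 5p arm of miR-511 made up 12.3%, 12.3% and 14.1% of the hairpin's counts in LPS libraries, against 13.9%, 15.4% and 15.4% in control libraries. LPS replicate 3 lay above control replicate 1, so these groups overlapped. The arm difference was -0.23 (SE 0.19, interval -0.64 to 0.17, limma adjusted p = 0.704). For miR-378a the 5p share was 0.858%, 0.682% and 0.834% in LPS and 0.907%, 0.657% and 0.658% in control libraries, with an arm difference of 0.10 (SE 0.20, interval -0.31 to 0.52).

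The share of the scarcer strand differed among the 3 hairpins. The scarcer arm held 13.9% of the hairpin's counts in miR-511, 2.79% in miR-342 and 0.766% in miR-378a, as means over the 6 libraries, where the median over the 100 hairpins was 6.83%. In 83 of the 100 hairpins the scarcer arm held a larger share than in miR-378a.

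**Figure D4:**
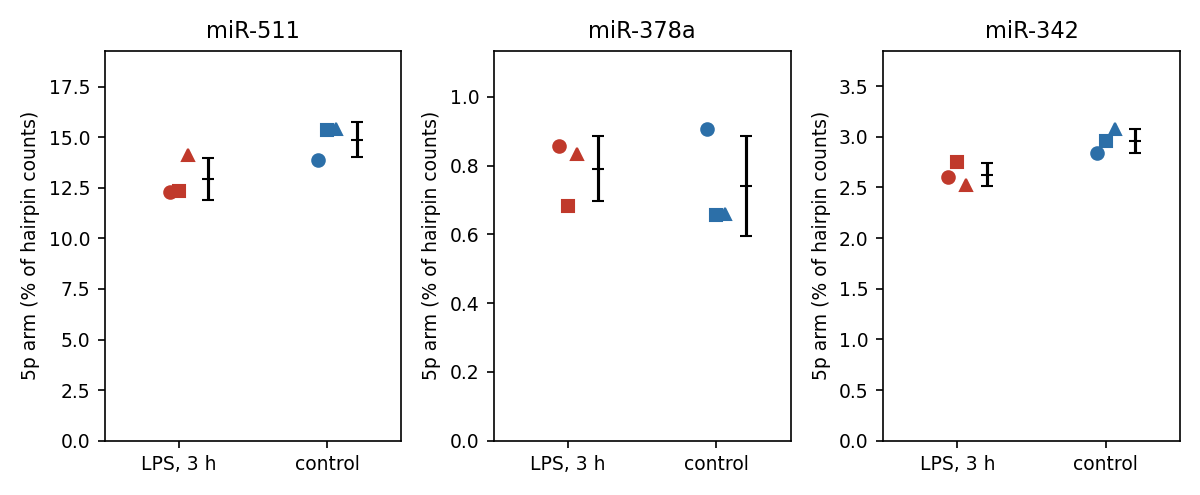
Share of the 5p arm in the counts of its hairpin (%), for miR-511, miR-378a and miR-342, with LPS libraries (red) left of control libraries (blue). Points are libraries, marker shapes give the replicate number (circle 1, square 2, triangle 3) and bars are mean ± SD (n = 3). The miR-342 groups are apart (2.53% to 2.75% in LPS, 2.84% to 3.08% in control), as in 19% of all 100 hairpins, and the other 2 overlap.

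How the arms varied from library to library was described by centring each arm's log2 CPM on its own mean. The strands of miR-342 moved alike: both were highest in control replicate 1 and lowest in LPS replicate 3, and their profiles differed by 0.10 on the log2 scale (root mean square over the 6 libraries). Of 356 other tested miRNAs, 1 had a profile nearer to that of miR-342-5p than miR-342-3p had. The strands of miR-511 were both highest in control replicate 2 and lowest in LPS replicate 1, with a difference of 0.15. miR-511-3p ranked 2nd of 356 in nearness to miR-511-5p, but miR-511-5p ranked only 40th in nearness to miR-511-3p. miR-378a-5p, miR-378a-3p and miR-378d were all lowest in control replicate 2, but miR-378c was lowest in LPS replicate 2. In nearness to miR-378a-3p, miR-378d ranked 38th, miR-378c 107th and miR-378a-5p 118th of 356. The 6 points share library preparation and scaling, so these are descriptions with no test.

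**Figure D5:**
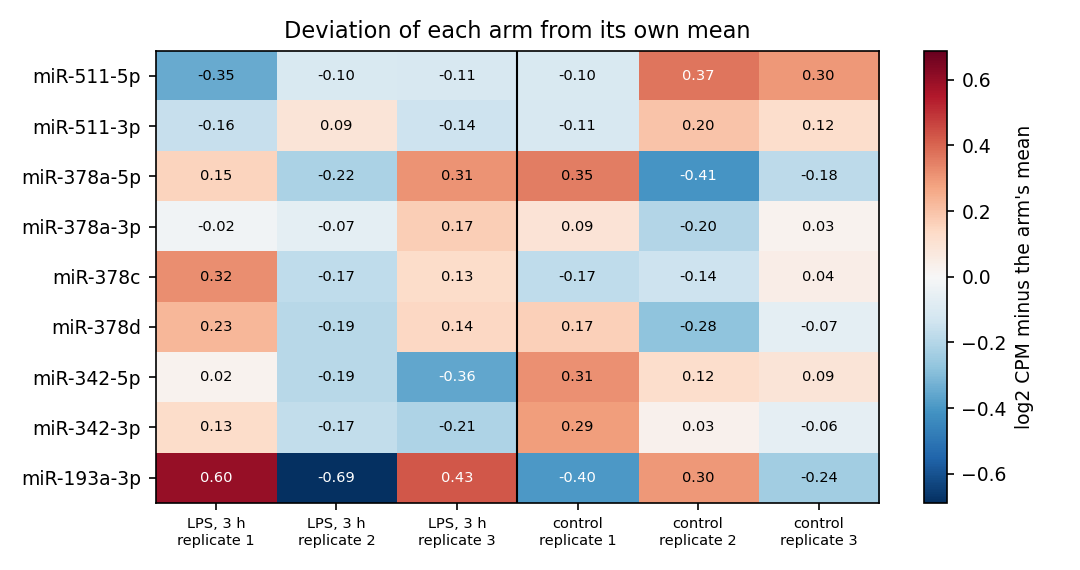
Log2 CPM of each arm minus its own mean over the 6 libraries (colour and printed value), with LPS libraries left of control libraries. miR-193a-3p has the widest swings, from -0.69 in LPS replicate 2 to 0.60 in LPS replicate 1. The arms of miR-511 differ in sign in LPS replicate 2 (-0.10 for 5p, 0.09 for 3p). Those of miR-342 differ in sign in control replicate 3 (0.09 for 5p, -0.06 for 3p).

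By the same measure, the miRNAs outside the hairpin with the nearest profile were found for the more abundant arm of miR-511, miR-378a, miR-342 and miR-193a. For miR-511-3p they were miR-27b-3p (0.06), miR-671-5p (0.06) and miR-132-3p (0.08), where the median over 355 miRNAs was 0.26. For miR-378a-3p they were miR-1843a-5p (0.06), let-7i-5p (0.06) and miR-7015-3p (0.07), with a median of 0.25. For miR-342-3p all 3 were let-7 arms, namely let-7b-5p (0.07), let-7c-5p (0.08) and let-7f-5p (0.10), with a median of 0.28. For miR-193a-3p the nearest, miR-200a-3p, differed by 0.19, where the median was 0.51.

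Other miRNAs reported in macrophage activation were set beside these arms. Of 13 others reported in alternative or anti-inflammatory activation, 10 were tested, 0 rose, 1 fell and 9 did not pass, with a median log2 fold change of -0.02. Over all 357 tested miRNAs, 3.64% rose, 1.4% fell and the median was 0.01. The list member that fell was miR-223-5p, from the myeloid hairpin miR-223, at 257 ± 10.4 CPM in LPS and 467 ± 97.5 CPM in control libraries (SD, n = 3 each). The other strand, miR-223-3p, is also in this list and did not pass (log2 fold change 0.04, edgeR adjusted p = 0.998). It was more abundant, at 2339 ± 331 CPM in LPS and 2279 ± 984 CPM in control libraries. After miR-223-5p, the largest log2 fold changes were those of miR-181a-5p (-0.28), miR-187-3p (-0.27), miR-125a-5p (0.24) and miR-146a-5p (0.21), which did not pass. miR-124-3p, miR-199b-5p and miR-193b-3p had too few counts to be tested. Both arms were listed for miR-223 alone, so the tally leaves out most second strands. Among these, miR-146a-3p had 169, 179 and 178 counts in LPS libraries, against 22, 47 and 42 counts in control libraries. miR-125a-3p had 400, 534 and 365 counts in LPS, against 109, 79 and 119 counts in control libraries. For miR-132-5p the counts overlapped (27, 23 and 21 in LPS, 17, 34 and 36 in control libraries).

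Of 11 miRNAs reported in classical activation, 8 were tested, and 2 rose, both arms of miR-155, 0 fell and 6 did not pass. The median log2 fold change was 0.17, against 0.01 over all tested miRNAs, of which 3.64% rose. The list was chosen with earlier results of these data known, and its 2 calls come from the same hairpin. Both arms were listed for miR-155 alone. The unlisted miR-27a-5p stood at -1.02, -0.45 and -1.43 in LPS libraries, as log2 CPM minus its own mean. In control libraries it stood at 0.99, 1.10 and 0.80. The unlisted miR-301a-5p overlapped, with 21, 40 and 35 counts in LPS and 34, 29 and 53 counts in control libraries. miR-155-5p was at 4632 ± 498 CPM in LPS and 690.1 ± 412 CPM in control libraries (SD, n = 3 each), a log2 fold change of 2.75 with an interval of 1.90 to 3.59. That interval lies above the upper bound of each of the 9 arms, the highest of which was 1.03. miR-147-3p (1.51), miR-29b-3p (0.28), miR-27b-3p (-0.14) and miR-125b-5p (-0.09) did not pass. miR-9-5p, miR-127-3p and miR-146b-5p had too few counts to be tested. Such a low count need not mean a low level, since miR-146b-5p had 0 to 5 counts beside 11 to 22 for miR-146b-3p.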

How the data were processed

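Per the labels' protocols, TruSeq Small RNA libraries were prepared from total RNA. The authors deposited raw counts of mature miRNAs for 3 LPS and 3 control libraries. The submitters' processing notes name SAMtools 0.1.19, Novoalign and mm10 (GRCm38.p1). How reads were counted, on which annotation and strand, and with what treatment of multiply mapping reads is, in the sources used here, not given. Reads carry no molecular identifiers, so depth covers counting error only. The 2 chromosome conformation (3C-seq) samples were not analysed here.

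Counts were tested with edgeR 4.0.16 in R 4.3.3 (TMM factors of 0.96 to 1.053, filterByExpr with a minimum count of 10, 357 miRNAs holding 99.974% of counts). Standard errors and 95% intervals were derived from the fold change and its F statistic. Arm ratios used limma 3.58.1 on log2 CPM with a prior count of 2 and a variance trend. Alternatives were other scalings and filters, DESeq2 1.42.0, limma-voom, other prior counts, a replicate block and leaving out each library. The fits were tested on simulated data. Replicate libraries differed by more than sampling noise in every pair, with a smallest chi-square of 52.96 for each degree of freedom.

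The miRNAs and lists were chosen with earlier results of these data known, so the lists have no test of their own. The text names the 9 arms, miRNAs that share a seed or lie within 10 kb, the 3 nearest profiles for the abundant arm of miR-511, miR-378a, miR-342 and miR-193a, and of the 2 activation lists every call and up to 4 others by absolute fold change. miR-378b, the miR-365 arms, miR-223-3p and miR-181a-1-3p fall outside this rule and were chosen after their values were seen.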

Additional observations from a re-analysis of the deposited data

How the results depend on the processing

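Over the 14 alternatives to the edgeR test, among them DESeq2 and limma-voom, 0 of the 9 arms passed, and the lowest adjusted p was 0.142, for miR-342-5p. At an unadjusted p below 0.05 the edgeR test gave 1 arm. The signs of miR-511-5p, miR-511-3p, miR-342-5p, miR-342-3p, miR-378c and miR-193a-3p held in all 14, while miR-378a-3p turned negative in 2 and was at 0.00 with library totals, and miR-378a-5p and miR-378d in 1 each. None of the 3 arm differences passed in 12 alternatives, and none changed sign. The count of miRNAs called over the whole table was 18, and ranged from 11 to 18 when 1 library was left out, with 11 without LPS replicate 3. Upper-quartile factors and library totals moved the median of all log2 fold changes to -0.05 each.

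Whether replicate numbers pair the libraries is not labelled, and so few libraries cannot settle it. Deviations of same-numbered libraries correlated across miRNAs at 0.02, 0.14 and -0.04, and not every library correlated best with its own number. With the replicate number as a block 17 miRNAs passed over the whole table, 0 of the 9 arms (lowest adjusted p = 0.236, for miR-342-5p) and 0 of the 3 arm differences (lowest adjusted p = 0.739). miR-193a-3p, with 40 to 86 counts per library, had the widest interval, and its CPM had a coefficient of variation of 42.1% in LPS and 27.3% in control libraries. miR-378c, at 61 to 73 counts, had 17.2% in LPS and 8.55% in control libraries.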

Other observations

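miR-365-3p, whose mature sequence is shared by 2 hairpins, Mir365-2 near miR-193a and Mir365-1, had 0 counts in all 6 libraries. miR-365-2-5p, which belongs to Mir365-2 alone, had 1 to 2 counts in LPS and 0 to 6 counts in control libraries. Of 51 listed miRNAs with several hairpins in the sequence table, 14 reached 10 counts in some library. Each of the 6 arms with a sequence has 1 hairpin in that table. miR-193b-3p, which shares the seed of miR-193a-3p, had 3, 5 and 6 counts in LPS libraries and 2, 3 and 3 counts in control libraries, below the filter.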
